A study of Mus musculus with 21 samples.

Results

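The thick ascending limb and distal convoluted tubule genes described here are 8 in number: Umod, Slc12a1, Kcnj1, Bsnd, Slc12a3, Kcnj10, Pvalb and Trpm6. They were taken from a list of names, and all 8 of them were found among the 21657 genes listed in the deposited counts. RNA was sequenced from the kidneys of female apoE knockout mice on a C57BL/6J background, which were 18 weeks old at collection after 14 weeks on their diets. Con mice (n = 5) ate chow, Ade mice (n = 6) ate chow with adenine, which causes chronic kidney disease, and Ade + IMC mice (n = 6) ate chow with adenine and iodomethylcholine (IMC), an inhibitor of the gut bacterial enzyme that makes trimethylamine, the precursor of trimethylamine N-oxide. A further group of 4 mice labelled Con + IMC is not analysed here. All the mice lacked apoE, so no group stands for a wild-type kidney. RNA came from kidney tissue, not from separated cells. Fewer tubule cells and less RNA per tubule cell therefore cannot be told apart in any value below. The question of the study design was whether the inhibitor prevents the kidney disease that adenine feeding induces.

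The thick ascending limb of the loop of Henle reabsorbs salt without water and so makes the gradient by which urine is concentrated. Slc12a1 encodes NKCC2, the apical sodium, potassium and chloride cotransporter that furosemide blocks, Kcnj1 encodes ROMK, the apical channel that returns potassium to the lumen, and Bsnd encodes barttin, the accessory subunit of the basolateral chloride channels. Umod encodes uromodulin, the most abundant protein of normal urine, which is made mainly by this segment. In the distal convoluted tubule that follows, Slc12a3 encodes NCC, the thiazide-sensitive sodium and chloride cotransporter, Kcnj10 encodes the basolateral potassium channel Kir4.1, Trpm6 encodes an apical magnesium channel, and Pvalb encodes parvalbumin, a calcium-binding protein of the early part of that segment. Loss of function of Slc12a1, Kcnj1, Bsnd, Slc12a3 or Kcnj10 causes inherited salt-wasting disorders, that of Trpm6 causes inherited magnesium loss, and uromodulin mutations cause an inherited tubulointerstitial kidney disease.

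Reads assigned to genes ranged from 7716126 to 11680809 in Con mice, from 5444833 to 7673215 in Ade mice and from 5728589 to 8305968 in Ade + IMC mice. Of the 6 marker lists of other cells and of injury, 5 had summed levels that did not overlap between Con and Ade mice. The summed level of 8 proximal tubule markers ranged from 10822 to 16087 counts per 1000000 reads (CPM, scaled by TMM) in Con mice, 1497 to 6431 in Ade mice and 2679 to 5527 in Ade + IMC mice. The same sum ranged from 194 to 235, 1182 to 1992 and 1046 to 2045 CPM for 8 leukocyte markers, and from 343 to 418, 2180 to 2698 and 1663 to 2447 CPM for 8 fibroblast markers. For 8 tubular injury markers it ranged from 1522 to 1886, 5500 to 18059 and 3160 to 11909 CPM, and for 8 collecting duct markers from 678 to 836, 232 to 446 and 335 to 585 CPM. The sum of 8 podocyte and endothelial markers overlapped between all groups, at 1081 to 1319, 414 to 1211 and 785 to 1731 CPM. Among the listed markers of other cells, Avpr2 and Cd79a alone had mice with no reads, 1 Con mouse each. The part of these shifts in the values of the 8 genes was not tested. The knocked-out gene, Apoe, had 47 to 214 reads a mouse, and since the counts are per gene, reads outside a deleted part cannot be told from an intact gene.

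**Figure D1:**
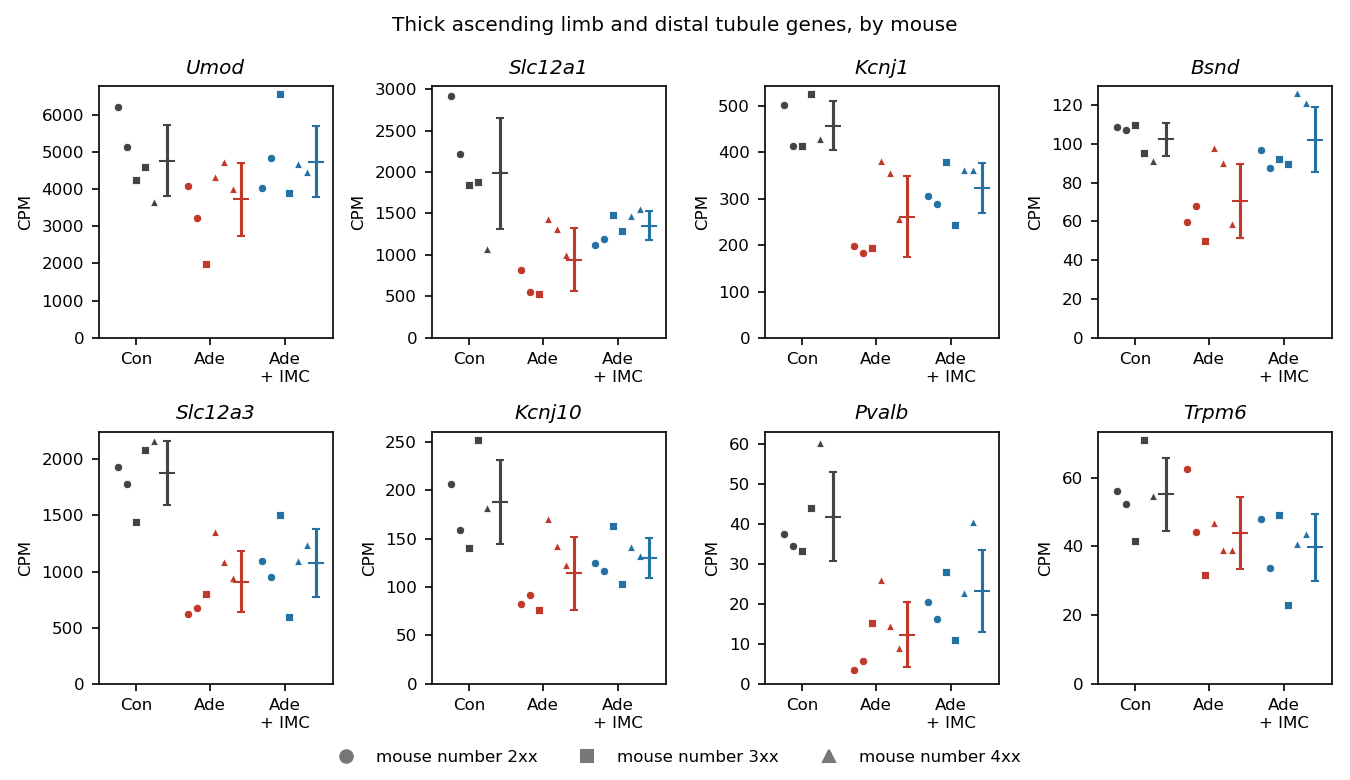
Level of each of the 8 genes in each mouse, in TMM-scaled CPM on a linear axis from 0, by diet group. Each point is a mouse, its shape gives the leading digit of its number, and the bar to the right of each group is the mean ± SD. The Con and Ade points of Slc12a3, Kcnj1 and Pvalb do not overlap, whereas those of Umod and Trpm6 do.

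On GRCm38 the thick ascending limb genes are annotated as Umod at chr7:119462711-119479282, Slc12a1 at chr2:125152505-125230002, Kcnj1 at chr9:32372493-32399197 and Bsnd at chr4:106483456-106492283, and the distal convoluted tubule genes as Slc12a3 at chr8:94329201-94366214, Kcnj10 at chr1:172341210-172374085, Pvalb at chr15:78191114-78206400 and Trpm6 at chr19:18749983-18892511. Levels per kilobase of annotated exon set the 8 genes in order. In Con kidneys Umod stood at 1725 ± 348 CPM per kilobase (SD, n = 5), Slc12a1 at 345 ± 116, Slc12a3 at 169 ± 25.7 and Kcnj1 at 137 ± 15.9. Pvalb at 40.2 ± 10.6, Bsnd at 37.1 ± 3.09 and Kcnj10 at 34.7 ± 8.06 followed, and these 3 neighbours did not differ beyond their spread. Trpm6 was lowest, at 7.14 ± 1.37 CPM per kilobase. In Ade kidneys Umod stayed first at 1348 ± 356 CPM per kilobase (SD, n = 6), followed by Slc12a1 at 163 ± 65.6, Slc12a3 at 81.9 ± 24.6 and Kcnj1 at 78.4 ± 26.2, with the last pair within their spread. Pvalb moved from the fifth place to the seventh in Ade kidneys, at 11.8 ± 7.89 CPM per kilobase, below Bsnd at 25.7 ± 6.92 and Kcnj10 at 21.1 ± 6.91.

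The promoters of the distal convoluted tubule genes are shown because the transcription factors described further on include members of the AP-2 family, which are known to act in this part of the nephron. RefSeq promoter windows on GRCm38.p6 were matched by symbol for 7 of the 8 genes, and Pvalb had a pair of them. Each sequence is the 250 bases before the start of transcription that RefSeq gives, 5′ to 3′ on the gene's strand, with matches to 3 motifs in capitals: AAGGTCA (ESRR), GCCNNNGGC (AP-2) and TATAAA, searched on both strands.
Slc12a3, chr8:94328958-94329207, plus strand: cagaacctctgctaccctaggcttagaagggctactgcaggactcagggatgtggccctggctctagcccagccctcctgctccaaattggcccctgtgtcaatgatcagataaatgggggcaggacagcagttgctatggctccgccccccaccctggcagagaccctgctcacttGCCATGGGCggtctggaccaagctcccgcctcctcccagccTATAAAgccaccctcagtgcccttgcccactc
Kcnj10, chr1:172340960-172341209, plus strand: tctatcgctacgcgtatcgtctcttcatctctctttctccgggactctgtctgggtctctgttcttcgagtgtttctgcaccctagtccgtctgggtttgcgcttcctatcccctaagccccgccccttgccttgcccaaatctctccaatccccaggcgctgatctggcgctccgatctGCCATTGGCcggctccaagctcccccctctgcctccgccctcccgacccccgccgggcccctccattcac
Pvalb, chr15:78206401-78206650, minus strand: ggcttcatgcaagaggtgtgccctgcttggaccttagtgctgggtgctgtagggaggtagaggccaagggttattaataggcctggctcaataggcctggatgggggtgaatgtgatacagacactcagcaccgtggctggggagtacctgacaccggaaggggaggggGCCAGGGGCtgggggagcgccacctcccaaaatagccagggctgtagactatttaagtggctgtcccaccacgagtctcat
Trpm6, chr19:18749480-18749729, plus strand: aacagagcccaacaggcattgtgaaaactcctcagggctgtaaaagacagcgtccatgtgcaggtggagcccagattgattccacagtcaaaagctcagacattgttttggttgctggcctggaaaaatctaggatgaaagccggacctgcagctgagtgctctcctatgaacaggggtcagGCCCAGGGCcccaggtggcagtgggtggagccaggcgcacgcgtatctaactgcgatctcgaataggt
The AP-2 letters stood 73 to 65 bases before the start in Slc12a3, 70 to 62 in Kcnj10, 81 to 73 in this window of Pvalb and 68 to 60 in Trpm6, and the second Pvalb window held them 164 to 156 bases before its start. The RefSeq starts are not all those of the gene annotation above: that of Trpm6 lies 253 bases upstream of the annotated gene, its next 25 bases were found in no annotated transcript, and that of Kcnj1 lies inside the annotated gene. Of all 32851 promoter windows of that length, 13.7% held these letters. The letters are rich in G and C, as were the windows that held them, at 54.4% to 71.6% G and C. The median of all windows was 52.4%, and Umod, Slc12a1 and Kcnj1 had 45.2%, 39.6% and 44.8%. Windows of like composition were not compared. TATAAA stood 32 to 27 bases before the start of Slc12a3 and occurs in 12.4% of all windows, and AAGGTCA, found in 4.08% of all windows, was in none of the windows of these genes. The windows of Umod, Slc12a1 and Kcnj1 held none of the 3 motifs. These matches describe letters only.

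Of the 8 genes, 6 were lower on the adenine diet. Compared with Con kidneys, Pvalb fell 3.38-fold in Ade kidneys, Slc12a1 2.08-fold, Slc12a3 2.03-fold, Kcnj1 1.72-fold, Kcnj10 1.62-fold and Bsnd 1.43-fold, whereas Umod and Trpm6 did not pass the test. edgeR's quasi-likelihood test over 14612 genes at a Benjamini-Hochberg adjusted p below 0.1 called 32.2% of all tested genes lower. The median log2 fold change of the 8 genes was -0.74, beside 0.02 over all genes tested.

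Slc12a1 was measured at 2918, 2216, 1841, 1879 and 1077 CPM in Con mice 201, 202, 301, 302 and 403. In Ade mice it ranged from 535 to 1433 CPM with a median of 906. All the Ade mice were below the Con median and 4 of the 6 were below every Con mouse, but the groups overlapped through Con mouse 403. The log2 fold change was -1.06 ± 0.29 (SE, adjusted p = 0.00589).

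Kcnj1, which recycles the potassium that NKCC2 needs, was at 503, 414, 415, 525 and 429 CPM in the same Con mice and between 183 and 381 CPM in Ade mice, with a median of 227. Every Ade mouse was below every Con mouse. The log2 fold change was -0.79 ± 0.19 (SE, adjusted p = 0.00288).

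Bsnd was at 109, 107, 110, 95.1 and 91.3 CPM in Con mice and between 50.1 and 97.9 CPM in Ade mice, with a median of 63.7. Mouse 407 was the only Ade mouse inside the Con range. The log2 fold change was -0.51 ± 0.15 (SE, adjusted p = 0.0101).

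Umod was at 6203, 5125, 4255, 4589 and 3664 CPM in Con mice and between 1987 and 4718 CPM in Ade mice, with a median of 4042. Only 2 of the 6 Ade mice were below every Con mouse. The log2 fold change of -0.33 ± 0.21 (SE) gave an adjusted p of 0.181, and its 95% interval from -0.78 to 0.12 does not leave out a fall as large as that of Kcnj10. With mice blocked by the leading digit of their number, a digit described below, the value was -0.50 (adjusted p = 0.0524) and passed. Of the 2763 annotated exonic bases of Umod, 539 overlap an antisense gene, and strand use in the counting is not stated, whereas the other 7 genes share no exonic base with another gene.

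Of the distal convoluted tubule genes, Slc12a3 was at 1926, 1781, 1438, 2086 and 2160 CPM in Con mice and between 620 and 1348 CPM in Ade mice, with a median of 869. Each Ade mouse was below each Con mouse, and the log2 fold change was -1.02 ± 0.19 (SE, adjusted p = 0.000455). Kcnj10 was at 207, 159, 140, 252 and 182 CPM in Con mice and between 75.9 and 170 CPM in Ade mice, with a median of 107. For Kcnj10, 4 of the 6 Ade mice lay below every Con mouse, and the log2 fold change was -0.70 ± 0.21 (SE, adjusted p = 0.0101).

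Pvalb had the lowest counts of the 8 genes in Ade kidneys. Its reads numbered 371, 239, 246, 338 and 461 in Con mice and 27, 50, 91, 193, 116 and 70 in Ade mice 207, 208, 308, 407, 408 and 409. In CPM the range was 33.3 to 60.2 in Con mice and 3.43 to 26.1 in Ade mice, without overlap. The log2 fold change was -1.76 ± 0.37 (SE, adjusted p = 0.00101), the furthest from 0 of the 8. Trpm6 was at 56.1, 52.4, 41.4, 70.9 and 54.7 CPM in Con mice and between 31.7 and 62.4 CPM in Ade mice, with a median of 41.7 and overlapping groups. Its log2 fold change of -0.31 ± 0.16 (SE) lay just outside the threshold (adjusted p = 0.11) and inside it with DESeq2 (adjusted p = 0.0931), with limma (adjusted p = 0.0971), with DESeq2-type scaling in edgeR (adjusted p = 0.0826), without Con mouse 301 (adjusted p = 0.0475) and without Ade mouse 207 (adjusted p = 0.0143). Of the 19 fits of this comparison, counting the first, only those 5 called it, and the others reached an adjusted p of up to 0.29. With the leading digit as a block in edgeR the adjusted p was 0.113.

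Every Ade mouse was below every Con mouse for 3 of the 8 genes, Slc12a3, Kcnj1 and Pvalb, beside 20.6% of all genes tested. The 6 calls also held when any 1 mouse was left out. By the leading digit of each mouse's number, whose meaning is not stated and which is 2, 3 or 4, Slc12a3, Kcnj1, Kcnj10, Bsnd, Pvalb and Trpm6 were lower in Ade mice within each digit. The difference in Slc12a1 was -1.92 and -1.80 (log2 CPM) among mice numbered with 2 and 3, but 0.19 among those numbered with 4, where Con is represented by mouse 403 alone. For Umod these differences were -0.64, -1.15 and 0.24.

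**Figure D2:**
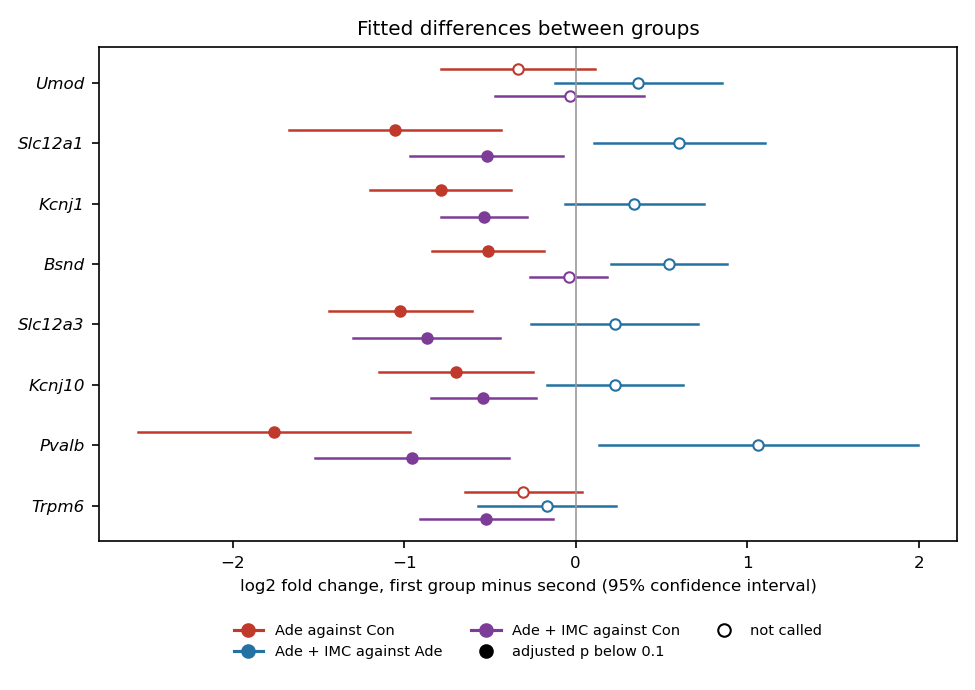
Fitted log2 fold change of each gene in the 3 comparisons, with its 95% confidence interval; filled points passed an adjusted p below 0.1. In Ade against Con and in Ade + IMC against Con 6 of 8 points are filled and all lie below 0, and in Ade + IMC against Ade none is filled and 7 of 8 lie above 0.

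Addition of IMC to the adenine diet was followed by higher means for 7 of the 8 genes, but none passed the test. In Ade + IMC kidneys the fitted log2 difference from Ade was 1.07 ± 0.43 for Pvalb, 0.60 ± 0.23 for Slc12a1, 0.55 ± 0.16 for Bsnd, 0.37 ± 0.23 for Umod, 0.34 ± 0.19 for Kcnj1, 0.23 ± 0.23 for Slc12a3, 0.23 ± 0.18 for Kcnj10 and -0.17 ± 0.19 for Trpm6 (SE, 6 mice against 6, limma on log2 of the normalized count + 1). The adjusted p-values ran from 0.706 to 0.887. limma called 0% of the 14696 genes tested, edgeR on recovered reads called 0 as well, and DESeq2 called 37. At an unadjusted p below 0.05, 493 genes were lower and 495 higher, the higher ones 3.37% of those tested. By that unadjusted measure Slc12a1, Bsnd and Pvalb were higher, and the median of the 8 log2 differences was 0.35 beside 0.01 over all genes. For 3 marker lists of other cells the median was above that of the 8 genes in this comparison, with no gene called: 0.52 for 7 collecting duct markers, 7 of them above 0, 0.47 for 8 podocyte and endothelial markers, all 8 above 0, and 0.42 for 7 proximal tubule markers, 5 above 0. The medians were 0.03 for 8 fibroblast, -0.14 for 8 leukocyte and -0.74 for 8 tubular injury markers, all 8 of the last below 0. The part of these shifts in the differences of the 8 genes was not tested.

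Bsnd normalized counts in the 6 Ade mice were 443, 510, 378, 729, 665 and 437, and in the Ade + IMC mice 211, 212, 310, 311, 410 and 412 they were 725, 650, 680, 671, 921 and 886. The lowest Ade + IMC mouse stood above 4 of the Ade mice, and 2 Ade + IMC mice exceeded all the Ade mice. The 95% interval of the log2 difference was 0.21 to 0.88. An exact two-sided permutation test over the 924 splits of the mice gave p = 0.0216, unadjusted. Within the leading digit the exact p was 0.00556, the smallest that the 180 splits can give.

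Slc12a1 normalized counts were 6085, 4171, 4033, 10670, 9697 and 7422 in Ade mice and 8411, 8813, 10999, 9702, 10753 and 11400 in Ade + IMC mice. The 3 lowest Ade values belonged to mice 207, 208 and 308, and all the Ade + IMC mice were above them. The spread was narrower in Ade + IMC mice, where CPM was 1354 ± 177 (SD, n = 6), than in Ade mice, where it was 942 ± 378, a difference in spread that was not tested. The exact permutation p was 0.0368 over all splits and 0.00556 within the leading digit, unadjusted. With each of the 12 mice left out in turn, the exact permutation p over all splits was 0.00866 to 0.0758 for Slc12a1 and lay above 0.05 in 7 of the 12, whereas for Bsnd it was 0.00433 to 0.0346.

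Pvalb normalized counts were 25.5, 42.7, 115, 194, 107 and 67.4 in Ade mice and 153, 121, 208, 82.6, 166 and 297 in Ade + IMC mice. The groups overlapped, with 2 Ade + IMC mice above every Ade mouse. The exact permutation p was 0.0563, and 0.0444 within the leading digit. Kcnj1 gave 0.130 and 0.0444 in these tests, Umod 0.106 and 0.0611, Kcnj10 0.294 and 0.111, Slc12a3 0.377 and 0.250, and Trpm6 0.465 and 0.611, all unadjusted.

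When the leading digit was a block in the limma fit, Bsnd passed at a log2 difference of 0.63 ± 0.12 (SE, adjusted p = 0.0602) and the other 7 genes did not, with adjusted p = 0.122 for Slc12a1, 0.171 for Pvalb and 0.201 for Kcnj1. That fit called 0.497% of all tested genes higher. Bsnd also passed with the block in edgeR (adjusted p = 0.0765) and in DESeq2 (adjusted p = 0.000534), where Slc12a1 (adjusted p = 0.00629) and Pvalb (adjusted p = 0.0340) passed too. The blocked limma call of Bsnd changed when single mice were left out: with each of the 12 left out in turn it passed in 4 fits. In these fits its log2 difference ran from 0.55 to 0.69, its unadjusted p from 5.7e-05 to 0.0014 and its adjusted p from 0.0182 to 0.188. Within digits 2, 3 and 4 the log2 difference of Bsnd was 0.53, 0.84 and 0.60, that of Slc12a1 0.77, 1.36 and 0.27, and that of Pvalb 2.01, 0.19 and 0.98. Umod differed by 0.28, 1.33 and 0.05 and Slc12a3 by 0.65, 0.22 and 0.04. Kcnj10 was higher in Ade + IMC mice at 0.47 and 0.76 and lower at -0.09, and Trpm6 was at -0.39, 0.07 and 0.00. Digit 3 holds 1 Ade mouse, 308, which had the fewest reads.

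**Figure D3:**
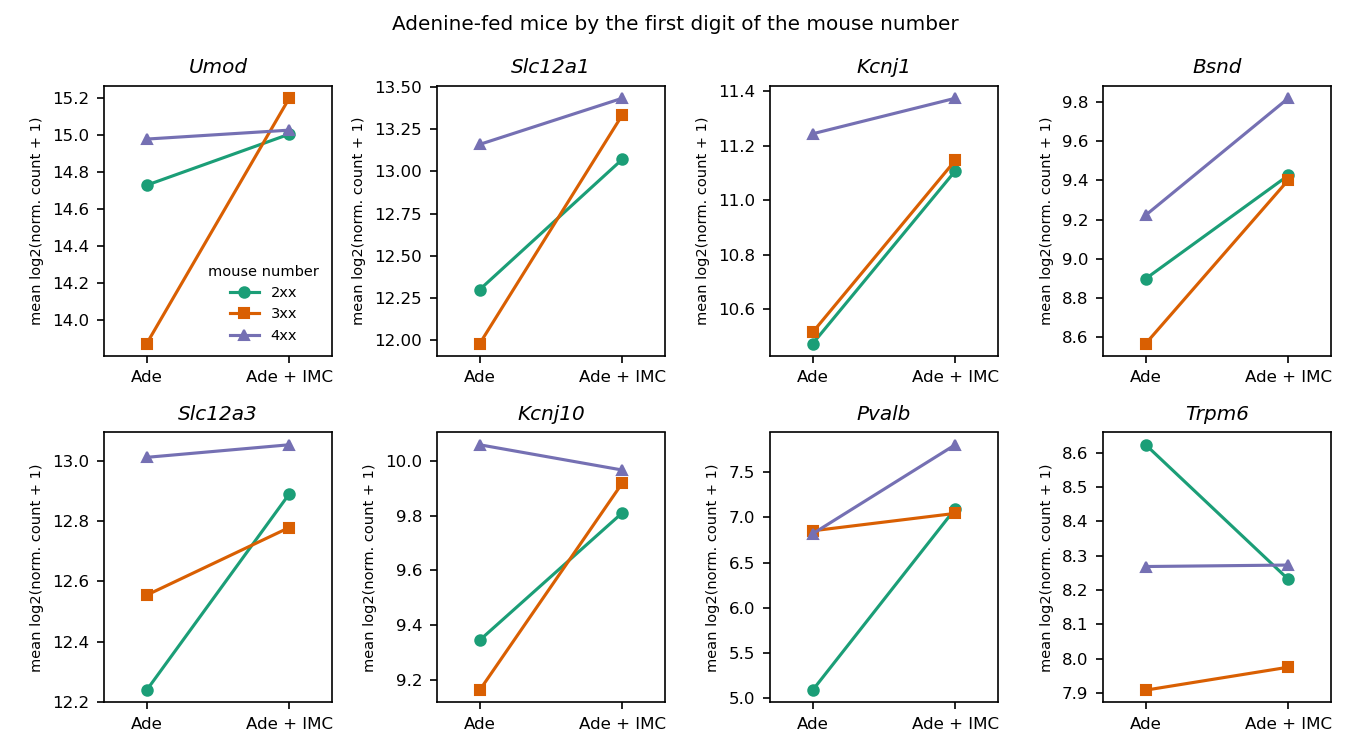
Mean log2(normalized count + 1) of each gene in Ade and Ade + IMC mice, joined within the leading digit of the mouse's number (2, 3 or 4; 1 to 3 mice a point); each panel has its own axis, which does not start at 0. Bsnd, Slc12a1, Pvalb, Kcnj1, Umod and Slc12a3 go up within all 3 digits, and Kcnj10 and Trpm6 within 2 of 3.

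Ade + IMC kidneys were also compared with Con kidneys, a comparison that shares its Con mice with the first. Again 6 of the 8 genes were called lower, by limma on log2 CPM over 14578 genes, of which 32.5% were called lower. The log2 differences were -0.95 ± 0.26 for Pvalb (SE, adjusted p = 0.00701), -0.87 ± 0.20 for Slc12a3 (adjusted p = 0.00210), -0.54 ± 0.14 for Kcnj10 (adjusted p = 0.00549) and -0.54 ± 0.12 for Kcnj1 (adjusted p = 0.00153). Trpm6 was lower by a log2 difference of -0.52 ± 0.18 (SE, adjusted p = 0.0241). Slc12a1, at -0.52 ± 0.21 (SE, adjusted p = 0.0465), did not pass without Con mouse 201 (adjusted p = 0.129), without Con mouse 202 (adjusted p = 0.101) or with all 17 mice in 1 fit (adjusted p = 0.122).

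Bsnd and Umod were the genes not called in this comparison. Bsnd averaged 102 ± 16.9 CPM in Ade + IMC mice (SD, n = 6), beside 102 ± 8.51 in Con mice (n = 5) and 70.7 ± 19.1 in Ade mice (n = 6). Its log2 difference from Con was -0.04 with a 95% interval from -0.26 to 0.18. Umod averaged 4737 ± 956 CPM in Ade + IMC mice, 4767 ± 962 in Con mice and 3724 ± 982 in Ade mice, with a log2 difference from Con of -0.04 and a wider interval from -0.47 to 0.40. Both differences are near 0 and change sign with upper-quartile scaling, to 0.04 for each.

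As a description, the mean log2 CPM of Ade + IMC mice can be placed between the means of Ade and Con, a share in which the Ade mice enter both differences. It lay 97.6% of the way to Con for Bsnd, 55.6% for Slc12a1, 53.9% for Pvalb, 41.1% for Kcnj1, 31.9% for Kcnj10 and 22.2% for Slc12a3. For the pair not called in Ade against Con, the share was 97.9% for Umod and -45.7% for Trpm6, whose Ade + IMC mean was the farther from Con. These shares are loose: with each of the 17 mice left out in turn they ran from 12.4% to 37.2% for Slc12a3, 20.8% to 41.8% for Kcnj10, 34.3% to 50.2% for Kcnj1, 44.7% to 63.3% for Pvalb, 47.0% to 64.8% for Slc12a1 and 86.5% to 105% for Bsnd, and from 72.7% to 132% for Umod and -95.3% to -2.22% for Trpm6. For Slc12a3 the lowest value came without Ade + IMC mouse 310 and the highest without 311, and for Kcnj10 the lowest came without Ade mouse 308. Thus Slc12a3 averaged 1077 ± 303 CPM in Ade + IMC mice (SD, n = 6) and 910 ± 274 in Ade mice (n = 6), beside 1878 ± 286 in Con mice (n = 5). Trpm6 averaged 39.7 ± 9.84, 43.8 ± 10.5 and 55.1 ± 10.5 CPM in these groups.

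Ratios of 2 genes within a mouse do not depend on library scaling. Each was tested with an exact two-sided permutation test and adjusted over 9 tests. The mean log2 ratio of Umod to Slc12a1 was 1.31 ± 0.26 in Con mice (SD, n = 5), 2.03 ± 0.34 in Ade mice (n = 6) and 1.80 ± 0.25 in Ade + IMC mice (n = 6). It was higher by 0.72 in Ade than in Con mice (exact p = 0.00866, adjusted p = 0.0519) and by 0.48 in Ade + IMC than in Con mice (exact p = 0.0173, adjusted p = 0.0519). In counts, the ratio ran from 2.13 to 3.402 in Con mice and from 3.02 to 5.82 in Ade mice, with a small overlap. Permuted within the leading digit, the exact p-values were 0.0278 and 0.0463 (adjusted p = 0.1 and 0.104), neither below the threshold after adjustment, where the smallest that the 72 and 108 splits can give are 0.0139 and 0.00926.

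The log2 ratio of Pvalb to Slc12a3, both of the distal convoluted tubule, was -5.51 ± 0.22 in Con mice, -6.45 ± 0.71 in Ade mice and -5.60 ± 0.34 in Ade + IMC mice (SD). It was lower in Ade than in Con mice by a log2 difference of -0.94 (exact p = 0.0152, adjusted p = 0.0519) and higher in Ade + IMC than in Ade mice by 0.85 (exact p = 0.0346, adjusted p = 0.0779). Within the leading digit the exact p-values were 0.0139 (72 splits, the lowest value possible) and 0.0333 (180 splits, lowest possible 0.00556), and both had an adjusted p of 0.1, which is not below the threshold. The second difference had an adjusted p of 0.112 without Ade mouse 207, 0.122 without Ade + IMC mouse 410 and 0.109 without Ade + IMC mouse 412. The ratio of Slc12a3 to Slc12a1, the thiazide target over the furosemide target, did not pass in any comparison (adjusted p = 0.257 to 0.933), and its log2 difference between Ade and Con mice was 0.02.

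**Figure D4:**
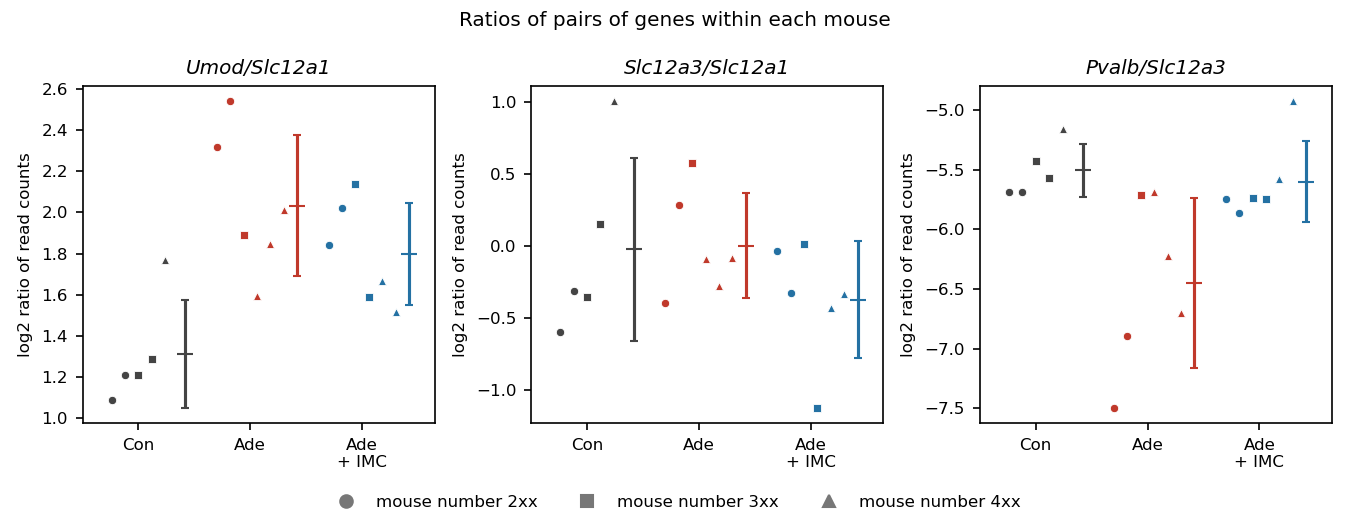
log2 ratio of the read counts of 2 genes in each mouse, by group, with the mean ± SD to the right of each group and the leading digit of the mouse's number as the shape. Umod over Slc12a1 averages 1.31 in Con and 2.03 in Ade mice, Pvalb over Slc12a3 averages -5.51 and -6.45, and Slc12a3 over Slc12a1 overlaps between all groups.

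Among the 12 adenine-fed mice the genes tended to be low or high in the same animals. The ranks given first keep the difference between the groups, and they were not set beside those of all genes. Ade mice 207, 208 and 308 were each among the 3 lowest of the 12 for 6 of the 8 genes. Ade + IMC mouse 310 was among the 3 highest for 7 genes, and Ade + IMC mouse 412 and Ade mouse 407 for 5 each, while Ade + IMC mouse 311 was among the 3 lowest for 3. With each group's mean removed, log2 CPM of Umod correlated with Slc12a1 at Pearson r = 0.75 (permutation p = 0.00484, adjusted over 7 genes 0.0190) and Spearman rho = 0.68 (permutation p = 0.0184). The values were r = 0.74 and rho = 0.72 for Kcnj10 (permutation p = 0.00544 and 0.0109) and r = 0.65 and rho = 0.72 for Kcnj1 (permutation p = 0.0177 and 0.0108). Slc12a3, Bsnd, Trpm6 and Pvalb gave r = 0.50, 0.49, 0.50 and 0.08, with adjusted permutation p-values of 0.120, 0.120, 0.120 and 0.807. Their rho was 0.64, 0.32, 0.46 and 0.18, with adjusted permutation p-values of 0.0493, 0.359, 0.189 and 0.572, so that Slc12a3 passed by rank and not by r. Without mice 308 and 310, the farthest from the Umod median, r was 0.72 for Slc12a1, 0.62 for Kcnj10 and 0.67 for Kcnj1, each with an adjusted permutation p of 0.129, so that the relations no longer passed. Within the 6 Ade mice r of Umod with Slc12a1 was 0.83 (exact permutation p = 0.00694), and within the 6 Ade + IMC mice it was 0.46 (exact permutation p = 0.393). With both the group and the leading digit removed, and the residuals permuted within the digit over all 17280 orders, r of Umod with Slc12a1 was 0.82 (permutation p = 0.00712, adjusted p = 0.0498) and rho was 0.85 (adjusted p = 0.0494). The other 6 genes did not pass that way by r or by rho, with r = 0.74 for Kcnj10 (adjusted permutation p = 0.178), 0.65 for Kcnj1 (adjusted permutation p = 0.226) and 0.40 for Slc12a3 (adjusted permutation p = 0.678). Without mice 308 and 310 this r was 0.76 for Slc12a1 and 0.44 for Kcnj10. Values from 1 library share its scaling.

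Of 15071 other genes, those whose log2 CPM over the 12 adenine-fed mice most resembled the mean of the 8 standardized genes were Slc25a12 (r = 0.98), Stard8 (r = 0.98), Tmem72 (r = 0.98), Stk32b (r = 0.97) and Mthfd1 (r = 0.97). Slc25a12 encodes a mitochondrial aspartate and glutamate carrier and Mthfd1 a folate enzyme, and all 5 were also lower in Ade than in Con kidneys, with log2 fold changes from -0.73 to -1.27. Within the 8, the likeness to their own mean was highest for Kcnj1 (r = 0.97) and lowest for Trpm6 (r = 0.29). Each of the 8 is part of that mean, which raises its r, so these values cannot be set against those of the other genes.

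The remaining genes of these segments moved largely the same way. Of 15 other thick ascending limb genes, 14 were tested, and Ade kidneys had 12 lower and 1 higher than Con kidneys, with a median log2 fold change of -0.79. Of all genes tested in this comparison 32.2% were lower and 35.1% higher, the background for this count and those of the lists that follow. Egf, the epidermal growth factor precursor made in this segment, averaged 3282 ± 841 CPM in Con mice (SD, n = 5) and 708 ± 520 in Ade mice (n = 6). Its log2 fold change was -2.19 ± 0.46 (SE, adjusted p = 0.000949), and Ade + IMC mice averaged 1150 ± 279 CPM, with an adjusted p of 0.715 against Ade. Kcnj16, the partner of Kir4.1 in the basolateral channel, fell by 1.28 on the log2 scale (adjusted p = 6.25e-05) and Casr, the calcium-sensing receptor, by 0.997 (adjusted p = 0.0144). The gene that rose was Cldn16, a claudin of the paracellular magnesium and calcium path, by 0.48 ± 0.13 (SE, adjusted p = 0.00749), named after its value was seen. Cldn14 of the same list had 0 to 10 reads a mouse and was not tested.

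Of 13 other genes of the distal convoluted and connecting tubule, 9 were lower and none was higher in Ade kidneys, with a median of -0.55. Kl, which encodes the FGF23 co-receptor klotho, fell by 1.54 on the log2 scale (adjusted p = 0.000303), from 1083 ± 207 to 367 ± 175 CPM. Klk1, tissue kallikrein, fell by 1.08 (adjusted p = 0.000733) and Trpm7, the close relative of Trpm6, by 1.02 (adjusted p = 5.59e-06). The Trpm6 difference, at -0.31, did not pass in the same test, and the difference between the 2 channels was not tested.

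WNK kinases act through SPAK, which phosphorylates NCC and NKCC2, and the KLHL3 and cullin 3 ligase degrades the WNK kinases. Of 11 genes of that pathway 9 were lower and none was higher in Ade kidneys, with a median of -0.59. Klhl3 went from 50.8 ± 10.99 CPM in Con mice to 18.3 ± 8.26 in Ade mice, a fall by 1.45 on the log2 scale (adjusted p = 0.000169). Ppp1r1b, a phosphatase inhibitor, fell by 1.36 (adjusted p = 0.00100) and Wnk1 by 0.79 (adjusted p = 0.00177). Stk39, which encodes SPAK, and Sgk1, the aldosterone-induced kinase, were the pair not called, at -0.12 and -0.01.

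Of 11 transcription factors of the distal nephron 7 were lower and none was higher in Ade kidneys, with a median of -0.64. Esrrb, an orphan nuclear receptor, fell by 1.28 on the log2 scale (adjusted p = 0.000498), from 61.4 ± 13.1 CPM in Con mice to 24.9 ± 10.5 in Ade mice, and Ade + IMC mice averaged 41.5 ± 7.41. Emx1 fell by 1.12 (adjusted p = 0.000197), as did Sall3 (adjusted p = 0.000536). Of the factors whose motifs were searched above, Esrrg fell by 0.9995 (adjusted p = 0.000118) and Tfap2b, an AP-2 factor, by 0.28 (adjusted p = 0.0278), while Tfap2a, another AP-2 factor, was at 0.09 (adjusted p = 0.610).

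In Ade + IMC against Ade none of these 49 tested genes of the 4 lists was called, with list medians of 0.30, 0.20, 0.17 and 0.20 beside 0.01 over all genes. With the leading digit as a block 2, 1, 2 and 1 genes of these lists were called higher and none lower, 6 of 49 genes beside 0.497% of all genes in that fit. These calls changed when single mice were left out: with the block and each of the 12 mice left out in turn, 0 to 12 of the 49 genes were called higher, and 0 in 7 of the 12 fits. The calls over all genes changed too, from 0 to 654. The markers of the neighbouring segments fell as well: 7 of 7 tested proximal tubule markers, with a median of -2.07, and 7 of 7 tested collecting duct markers, with a median of -1.27, were lower in Ade than in Con kidneys. Of 8 podocyte and endothelial markers 2 were lower, a share near the 32.2% of all genes tested. All 8 leukocyte, all 8 fibroblast and all 8 tubular injury markers were higher, with medians of 3.43, 1.96 and 2.87, beside 35.1% of all genes tested.

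**Figure D5:**
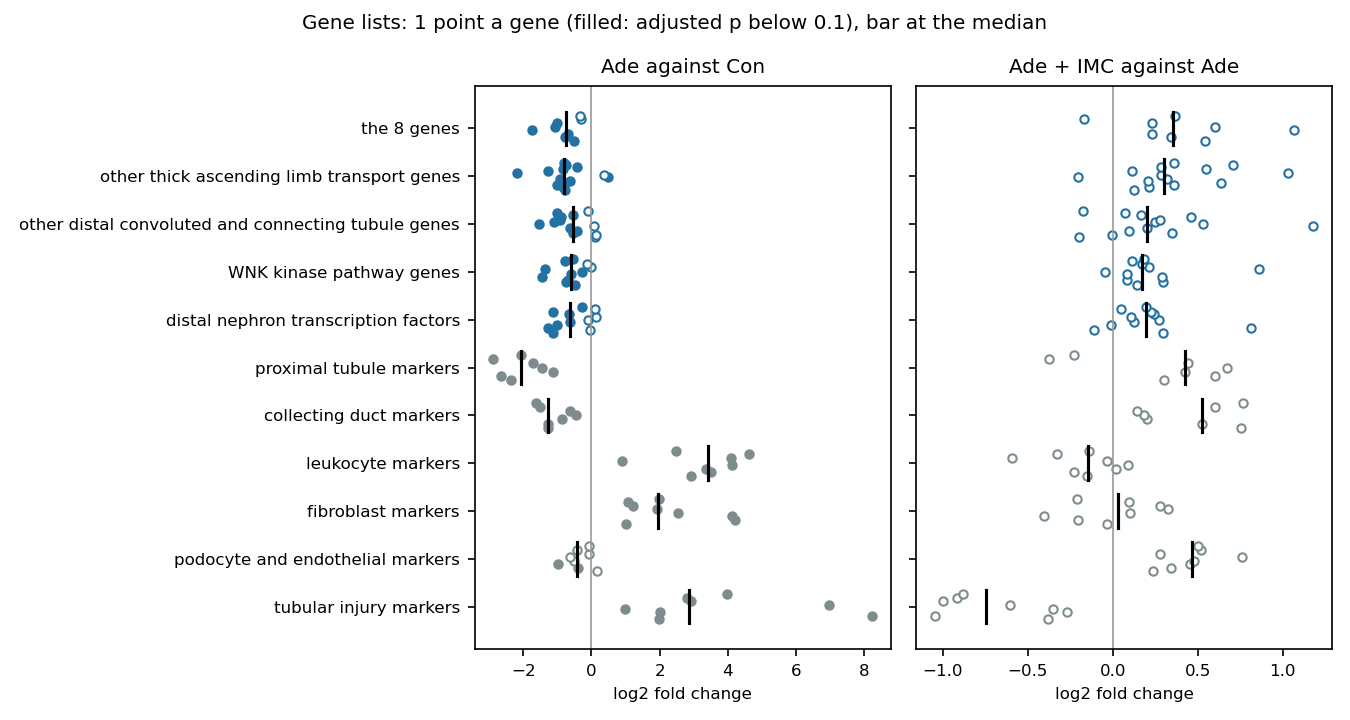
log2 fold change of every tested gene of the 5 distal nephron lists (blue) and of the 6 marker lists of other cells and of injury (grey), for Ade against Con on the left and Ade + IMC against Ade on the right; the axes of the panels differ. Filled points passed an adjusted p below 0.1 and black bars are list medians. On the left the medians of the distal lists lie between -0.79 and -0.55, and on the right no point is filled.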

How the data were processed

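Kidney RNA of 17 mice was sequenced as 50-base single reads, and the part of the kidney taken is not stated in the sources used here. The deposited raw counts hold Con and Ade mice; the deposited normalized counts, a signal that the authors made by dividing counts by DESeq2 size factors, hold Ade and Ade + IMC mice. The study names STAR on mm10, and the submitters' processing notes name Trimmomatic 0.39, FastQC 0.11.8, Bowtie2 2.2.5 and HTSeq 0.9.1; annotation release and strand use are not given in the sources used here. Columns of the authors' own comparisons were not used. Whole reads were recovered from 100% of normalized values (tolerance 1e-06) and matched the raw counts wherever both exist. Both tables list genes with at least 5 reads in all, and the 20634 genes in both were joined.

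Ade against Con was fitted with edgeR 4.0.16 (TMM, filterByExpr, quasi-likelihood), Ade + IMC against Ade with limma 3.58.1 on log2(normalized count + 1) at a mean of at least 10, and Ade + IMC against Con with limma on log2 CPM (prior count 2). The threshold was an adjusted p below 0.1 (Benjamini-Hochberg, all genes tested). DESeq2 1.42.0, other scalings, filters and pseudocounts, each mouse left out and a block for the leading digit of the animal numbers were alternatives. No source states what that digit marks. The fits were tested on simulated data. Gene positions and lengths came from GENCODE on GRCm38. The 8 genes and the lists were chosen with earlier results of these data known. Beside the 8 genes, up to 3 called genes with the largest fold change per list, the 5 genes most like the 8, and Apoe were named by rule. Avpr2, Cd79a, Cldn16, Cldn14, Cldn19, Stk39, Sgk1, Esrrg, Tfap2b, Tfap2a and Kcna1 were chosen after their values were seen. Nothing states whether mice shared litters or cages, and p-values measure the spread between these mice. Mice of 1 group differed by more than sampling noise (lowest ratio of chi-square to its degrees of freedom, 4.21).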

Additional observations from a re-analysis of the deposited data

Results flagged for a closer look

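In 33 sets of values (the 8 genes and 3 ratios in each of 3 groups), the gap of the most extreme mouse to its neighbour was compared with the range of its group, a comparison that chance passes in about 1 of 20 sets. A mouse stood apart in 2 sets, beside 1.65 expected by chance. Umod in Ade + IMC mouse 310 was at 6542 CPM, beside 3889 to 4835 CPM in the other Ade + IMC mice. Without this mouse the log2 difference of Umod between Ade + IMC and Ade mice was 0.27 (limma, adjusted p = 0.879), beside 0.37 with it, and without Ade mouse 308 it was lower still, at 0.20 (adjusted p = 0.939). The log2 ratio of Pvalb to Slc12a3 in Ade + IMC mouse 412 was -4.93, beside -5.86 to -5.58 in the others, and without it the difference in this ratio between Ade + IMC and Ade mice was 0.72 (exact permutation, adjusted p = 0.109).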

How the results depend on the processing

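In Ade against Con the number of the 8 genes called lower was 6 or 7 under every alternative, and in Ade + IMC against Con it was 5 or 6. In Ade + IMC against Ade 0 genes of the 8 and 0 of all genes were called, but DESeq2 on recovered reads called 37 genes, none of them among the 8. With mice blocked by the leading digit of their number, limma called 133 genes and 1 of the 8, edgeR 96 and 1, and DESeq2 591 and 3. These blocked edgeR and DESeq2 fits, and blocked fits without single mice, were added after seeing the data. With the block and each mouse left out, the calls ran from 0 to 654 genes and from 0 to 4 of the 8. They numbered 1 without Ade mouse 208, 654 (4 of the 8) without 407, 10 without 408 and 4 without 409, and 2 without Ade + IMC mouse 212, 289 (1 of the 8) without 310, 565 (3 of the 8) without 311 and 142 (1 of the 8) without 410. The mice share a digit and nothing states that it pairs them, so the block was no part of the tests reported first, and the cause of the change was not tested.

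The log2 difference in Slc12a3 over Slc12a1 between Ade and Con mice was -0.0055 within the leading digit and -0.12 to 0.28 with each mouse left out. For Umod over Slc12a1 the values within the digit were 0.72 (Ade against Con) and 0.48 (Ade + IMC against Con), and for Pvalb over Slc12a3 -1.01 (Ade against Con) and 0.88 (Ade + IMC against Ade), each at an adjusted p of 0.1 or just above. Without single mice the last difference was 0.64 to 1.004. Of the log2 differences of single genes, those of Umod and Bsnd between Ade + IMC and Con mice, near 0, turned positive: Umod to 0.041 with upper-quartile scaling and 0.0018 with all 17 mice in 1 fit, with a range of -0.13 to 0.060 without single mice, and Bsnd to 0.036 with upper-quartile scaling, with a range of -0.096 to 0.0054 without single mice. The correlation of Umod with Pvalb turned from r = 0.080 to -0.119 with the group and the leading digit both removed, an alternative added after seeing the data. Other scalings moved the median of all genes by at most 0.08 on the log2 scale.

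With 27 to 461 reads a mouse, Pvalb is the least precisely counted gene, and only 1 Con mouse carries the digit 4.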

Other observations

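Kcna1, which encodes a voltage-gated potassium channel of the distal convoluted tubule, was singled out after its values were seen. Of its list it alone was called higher in Ade + IMC than in Con kidneys, at a log2 difference of 1.15 ± 0.24 (SE, limma, adjusted p = 0.00112). Against Ade the log2 difference was 1.18 ± 0.30 (SE, adjusted p = 0.643), and Ade kidneys differed from Con by 0.08 ± 0.36 (SE, edgeR, adjusted p = 0.868). Of the 49 tested genes of the 4 distal lists, 2 were called higher in Ade + IMC than in Con kidneys. Beside Kcna1 this was Cldn19, of the thick ascending limb list, at 0.61 ± 0.16 (SE, limma, adjusted p = 0.00555).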
